A study of Mus musculus with 16 samples.

Results

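DNA replication origin and fork genes, 50 named genes whose products license, fire and elongate origins, were followed through all 16 libraries of a nascent RNA series in mouse embryonic stem cells. They were listed by symbol, with earlier results of these data known, out of 24978 gene symbols in the deposited table, and the widest line of each symbol was used. By role they comprise 17 licensing genes, 11 firing genes and 22 fork genes. Nascent RNA was measured by Bru-seq: cells took up 2 mM bromouridine for 30 min, and the labelled RNA was captured with an antibody and sequenced. Reads had been split between the castaneus (cast) and 129 copies of each gene. Every gene so had a value in CPM for each copy, and its level is the mean of both copies. CPM are read counts scaled to a total of 1000000 for each copy of each library on its own.

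The cells were F121-9, a cas/129 hybrid embryonic stem cell line grown in 2i plus LIF, and edited clones made from it, so every clone shares that hybrid background. The study concerns sequences that control replication timing in the domain of Dppa2 and Dppa4 on chromosome 16, where a, b and c name early replication control elements. The parental line and the clones called abc.del, ab.del and c.del were each sequenced as 2 libraries. The groups a.del, b.del, ac.del, bc.del, 680kinv, 100kdel, 245kdel and 4k.b.c had 1 library each. Both libraries of an edited group carry their own code in the sample names, which may stand for 2 separately picked clones, while those of F121-9 are numbered as repeats. Whether they were separate cultures, and whether 1 or both copies were edited, is not given in the labels, so p-values here reflect library spread of unstated origin, clonal or technical. F121-9 and the deletions named by letters make up 12 libraries, called the lettered libraries below. Sample numbers form 2 runs of 8. The first set holds F121-9, abc.del, bc.del, 680kinv and replicate 1 of ab.del and of c.del. The second set holds a.del, b.del, ac.del, 100kdel, 245kdel, 4k.b.c and replicate 2 of ab.del and of c.del. What separates the sets is not given in the sources used here.

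Origins are licensed when the origin recognition complex (Orc1 to Orc6), Cdc6 and Cdt1 load the Mcm2 to Mcm7 helicase onto DNA, and geminin (Gmnn) blocks Cdt1 once S phase has begun. A licensed origin fires when the kinase Cdc7 with its activator Dbf4 acts on the loaded helicase and Cdc45 and the GINS proteins join it, with Ticrr, Topbp1, Mcm10 and Recql4 as loading factors. At the fork, primase starts each strand, the clamp loader (Rfc1 to Rfc5) places the sliding clamp Pcna, polymerases extend, Fen1 and Lig1 finish lagging strand fragments, replication protein A (Rpa1 to Rpa3) covers single strands, and Timeless, Tipin and Clspn steady the fork. Embryonic stem cells spend much of their cycle in S phase and transcribe these genes throughout a growing culture.

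Reads assigned to a copy and lying over genes numbered 8.96 M to 32.0 M per library, with a median of 16.4 M. Embryonic stem cell markers summed to 1576 to 2216 CPM over the 16 libraries, with Klf2 under 0.2 CPM in each. The sum was carried by Esrrb, Tfcp2l1 and Zfp42, which did not pass between the 2 sets, but 5 of the 9 markers tested were higher in the second set by limma (Pou5f1, Sox2, Nanog, Klf4 and Tbx3) and 1 lower (Dppa5a), with a median of 0.53 on the log2 scale. Sox2 was 9.41 to 19.99 CPM in the first set and 21.4 to 38.2 CPM in the second, with no overlap. Markers of primitive endoderm summed to 62.3 to 231.8 CPM, those of primed or differentiated cells to 4.05 to 29.2 CPM, and those of fibroblasts and trophectoderm to no more than 2.03 and 1.95 CPM. The primitive endoderm sum was mostly Lama1, at 53.2 to 218.9 CPM. The primed list reached 4.05 to 7.45 CPM in the first set and 13.4 to 29.2 CPM in the second, with no overlap. In it Nes was 0.84 to 2.35 CPM in the first set and 4.74 to 21.4 CPM in the second, and Pax6 0.50 to 3.74 and 0.84 to 10.8 CPM. Otx2 reached 2.22 CPM in the first set but 0.88 CPM in the second, and Pou3f1 and Mixl1 were under 0.2 CPM in each library. The part of these lists in the results below was not tested. The libraries a.del and 4k.b.c stood apart: both read chromosome 1 almost wholly from 129 and chromosome 12 almost wholly from cast, and their chromosome 8 was shifted towards cast, as was chromosome 7 in 4k.b.c. Shifts towards cast were also seen in c.del replicate 1, with a median 129 minus cast difference of −1.13 on chromosome 3 and −0.28 on chromosome 8. In ac.del the median was −0.99 on chromosome 3, which holds none of the 50 genes. These chromosome 3 shifts were about as large as those of chromosome 8 in a.del and 4k.b.c, at −0.999 and −0.94.

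All 50 genes passed the filter of a mean of at least 0.2 CPM, and 48 of them had at least 30 reads in every library. The exceptions were Gins3, with 0 to 32 reads per library, and Recql4, a helicase of the RecQ family, with as few as 1. Per kb of gene, the highest licensing genes were Mcm3 with 6.75 CPM per kb and Mcm7 with 6.06, and the lowest was Mcm6 with 0.20. These levels count only reads that overlap a SNP between the copies, and the share of each gene that such reads can cover was not measured here. Among firing genes Mcm10 was highest with 4.85 CPM per kb and Gins3 lowest with 0.02. In the fork group Rif1, a protein known for its part in replication timing, was highest with 6.42 CPM per kb, ahead of Tipin with 5.61 and Pcna with 5.32, and Wdhd1, a fork adaptor, was lowest with 0.08.

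The SD of log2(CPM + 0.1) over the 16 libraries had a median of 0.27 over the 50 genes, against 0.42 over the 11225 genes with a mean of at least 1 CPM. Over the 14094 genes with a mean of at least 0.2 CPM it was 0.51. The background was not matched for level, so whether the 50 genes were steady for their level was not tested. The median SD was 0.27 for licensing, 0.27 for firing and 0.26 for fork genes. Orc2 and the polymerase subunit Pole had an SD of 0.11 and the checkpoint activator Topbp1 of 0.13. Orc2 lay between 94.8 and 127.2 CPM, with a median of 107.4 CPM. At the other end stood Gins3 with 1.04, Recql4 with 0.96, both on few reads, and Pcna with 0.68.

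Promoter sequences were matched for 39 of the 50 genes in RefSeq (GRCm38.p6), as 250 bases before to 50 after the start; the 11 without an entry were Gmnn, Mcm4, Gins1, Gins2, Gins4, Recql4, Pole, Prim2, Rfc2, Rif1 and Tipin. E2F factors are the textbook regulators of S phase genes. An E2F motif, searched as TTTCCCGC, TTTCGCGC, TTTGCCGC or TTTGGCGC on both strands, where matches can overlap one another, was found in 16 of 39 promoters (41.0%). The same windows held it in 4.18% of the 10856 tested genes with an entry. By role it was in 9 of 15 licensing promoters, 2 of 7 firing promoters and 5 of 17 fork promoters. The CCAAT box, searched on both strands, was in 23 of 39 (59.0%), against 39.2% of all. A match is a description and not a bound site. The 4 licensing promoters shown first carry the motif before the start, printed in capitals, and belong to Orc1, the largest subunit of the origin recognition complex, and to Mcm5, Mcm6 and Mcm7. They are chr4:108579319-108579453 on the plus strand, chr8:75109339-75109508 on the plus strand, chr1:128359706-128359830 on the minus strand and chr5:138171884-138172063 on the minus strand (GRCm38.p6).
Orc1: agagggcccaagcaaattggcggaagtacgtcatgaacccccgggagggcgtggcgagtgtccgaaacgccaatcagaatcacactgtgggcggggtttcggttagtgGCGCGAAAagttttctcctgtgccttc
Mcm5: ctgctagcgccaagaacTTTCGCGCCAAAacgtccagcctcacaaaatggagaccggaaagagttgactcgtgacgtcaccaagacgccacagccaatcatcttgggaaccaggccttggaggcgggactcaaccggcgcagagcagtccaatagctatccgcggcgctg
Mcm6: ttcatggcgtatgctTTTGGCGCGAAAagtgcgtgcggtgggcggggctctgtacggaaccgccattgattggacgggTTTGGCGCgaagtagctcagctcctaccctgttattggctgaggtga
Mcm7: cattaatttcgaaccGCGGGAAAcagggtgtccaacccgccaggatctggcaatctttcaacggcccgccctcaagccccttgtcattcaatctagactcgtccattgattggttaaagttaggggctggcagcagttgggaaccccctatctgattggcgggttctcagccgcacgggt
The next 3 hold no such E2F motif in their window and are shown because Pcna was higher, and Rpa1 and Rfc1 lower, in the second set (below); capitals mark a CCAAT box, read as CCAAT or as ATTGG on the other strand. They are chr2:132253181-132253280, chr11:75348384-75348483 and chr5:65335719-65335819, all on the minus strand.
Pcna: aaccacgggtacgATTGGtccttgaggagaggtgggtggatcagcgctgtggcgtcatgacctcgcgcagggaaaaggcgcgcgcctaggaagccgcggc
Rpa1: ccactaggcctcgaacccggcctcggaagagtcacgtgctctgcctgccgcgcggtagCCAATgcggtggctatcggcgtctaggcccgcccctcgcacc
Rfc1: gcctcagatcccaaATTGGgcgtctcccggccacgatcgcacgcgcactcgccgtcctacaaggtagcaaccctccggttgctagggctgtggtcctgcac

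In abc.del, the clones named for all 3 elements, no replication gene passed the test against F121-9, although most values were higher. Cdc6 (chr11:98907801-98923942, mm10), a helicase loader, was 32.2 and 29.6 CPM in the F121-9 libraries and 43.9 and 54.6 CPM in abc.del. Its libraries did not overlap, and the log2 difference was 0.67 ± 0.26 (SE), with an adjusted p of 0.41 by limma. Cdt1, its partner in loading, was 8.42 and 10.2 CPM in F121-9 and 15.2 and 18.1 CPM in abc.del, a log2 difference of 0.84 ± 0.49 (SE). Across the list 0 of 50 genes passed an adjusted p of 0.05 by limma, against 0.22% of all 14094 genes tested. By edgeR and DESeq2 the count was also 0. Among all genes edgeR called 0 higher and 18 lower, and DESeq2 43 higher and 315 lower. At an unadjusted p under 0.05 limma listed 1 of 50, Cdc6, against 10.3% of all genes. In bulk samples such as these, fewer cells of a type and less RNA per cell cannot be told apart.

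The direction of the abc.del values was shared by the roles. Of 50 genes, 44 had a positive difference, and the median was 0.24 on the log2 scale, against 0.04 for all genes tested; under 4 other scalings or count models the median lay between 0.21 and 0.22. By role the median was 0.34 for licensing, 0.16 for firing and 0.27 for fork genes. Both abc.del libraries lay above both F121-9 libraries for 29 of 50 genes, where 29.0% of all genes did so, and below for 2, Orc4 and Wdhd1, against 24.9% of all genes. Each subunit of the core helicase was among the 29: Mcm3 was 93.5 and 90.6 CPM in F121-9 and 135.3 and 124.1 CPM in abc.del, and Mcm7 was 29.2 and 27.7 CPM against 49.6 and 39.4 CPM. Orc1 and Orc6 were above as well, while Orc2, Orc3 and Orc5 overlapped. Orc4 had the opposite order, with 216.2 and 181.8 CPM in F121-9 and 155.7 and 156.5 CPM in abc.del, a log2 difference of −0.35 ± 0.18 (SE). Among fork genes Timeless was 25.2 and 21.1 CPM against 32.4 and 38.8 CPM, and Fen1, the flap nuclease, 7.48 and 5.75 CPM against 10.6 and 10.8 CPM. The 95% intervals had a median width of 1.23 on the log2 scale, and 28 of 50 lay within 1 of no difference. The list of embryonic stem cell markers was also higher in abc.del, at 1950 to 2216 CPM against 1668 to 1877 CPM in F121-9. So were those of primitive endoderm, at 173.7 to 202.7 against 108.7 to 131.3 CPM, and of primed or differentiated cells, at 4.93 to 7.45 against 4.05 to 4.85 CPM. Those of fibroblasts and trophectoderm were lower, at 0.33 to 0.79 against 1.27 to 2.03 CPM and 0.18 to 0.20 against 0.57 to 0.80 CPM. The part of these lists was not tested.

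**Figure D1:**
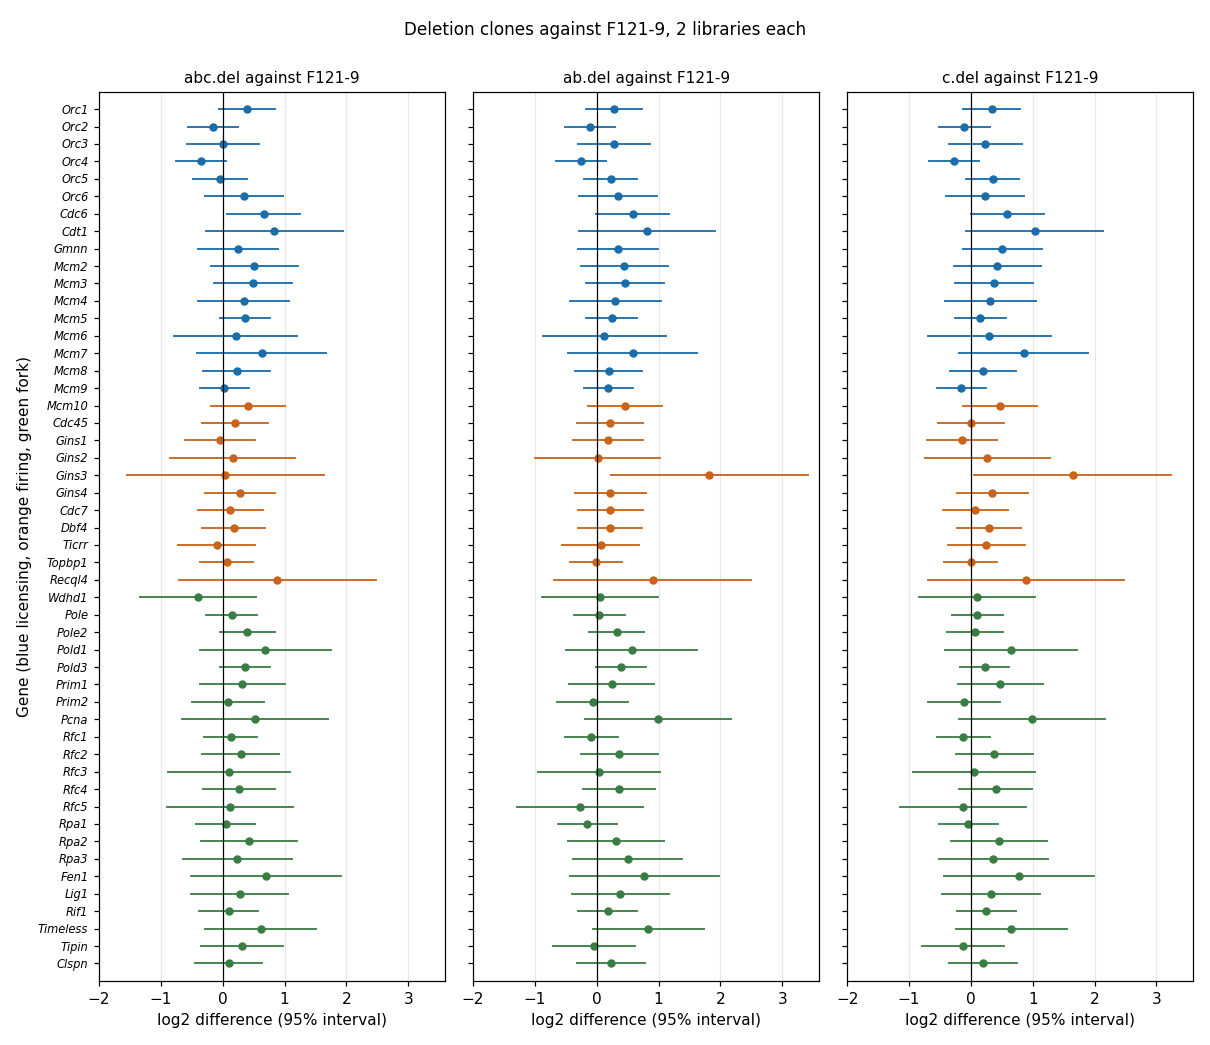
Log2 difference from F121-9 for each of 50 replication genes (points) with its 95% interval from limma (lines) in abc.del, ab.del and c.del, 2 libraries a group; blue is licensing, orange firing and green fork. Most points lie right of 0 in each panel, 44, 42 and 40 of 50, and no gene passed an adjusted p of 0.05.

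The smaller deletions gave the same count of calls. For ab.del against F121-9, 0 of 50 genes passed by limma, edgeR or DESeq2, against 0.0497% of all genes by limma; 1 of 50, Gins3, had an unadjusted p under 0.05, against 7.8%. For c.del the count was again 0 of 50 by all 3 tools, against 0.0497%, with Gins3 and Cdc6 at an unadjusted p under 0.05, against 9.44%. The smallest adjusted p by limma was 0.56 for ab.del and 0.52 for c.del. Among all genes DESeq2 called 29 higher and 158 lower for ab.del, and 56 higher and 166 lower for c.del. By edgeR 11 genes were lower for ab.del and 8 for c.del, and 0 were higher in either. Gins3, a GINS subunit, rested on 2 and 0 reads in F121-9, so that its fitted difference depends on the pseudocount. Both ab.del libraries were above F121-9 for 24 genes and below for 2, where 22.7% and 18.3% of all genes were. For c.del these counts were 20 and 2, against 22.5% and 16.5%.

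Each of ab.del and c.del had 1 library in each set, and for several genes those 2 libraries were far apart. Pcna was 13.1 CPM in the first ab.del library and 33.2 CPM in the second, and 12.6 and 34.1 CPM in c.del, against 12.2 and 8.93 CPM in F121-9. Cdt1 went from 12.6 to 21.2 CPM between the ab.del libraries and from 10.8 to 33.5 CPM between those of c.del. With set as a covariate the median of the 50 genes went from 0.24 to 0.08 in ab.del and from 0.28 to 0.09 in c.del, with 0 calls in either.

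Over the 12 lettered libraries, the number of elements in the name (0 to 3) showed no called gene: 0 of 50 by limma, against 0% of all genes. Pole2, the second subunit of the leading strand polymerase, had the smallest p, with a slope of 0.15 ± 0.06 (SE) on the log2 scale per element and an adjusted p of 0.65 by limma; it was the only one of 50 at an unadjusted p under 0.05, against 6.66% of all genes. Elements taken singly, with the others as additive terms, gave 0 of 50 calls for a (background 0.0142%), for b (0%) and for c (0%). At an unadjusted p under 0.05 stood 3 genes for a, Recql4, Cdt1 and Timeless, against 8.84% of all genes, and 0 for b and c, against 5.09% and 3.26%. Cdt1 lies on chromosome 8, which was shifted towards cast in a.del, a library of this fit. By edgeR and DESeq2 no member was called in any of these 4 fits, nor by limma without the a.del library. Among all genes DESeq2 called 6 higher and 72 lower for the trend and 37 and 123 for a. For b these counts were 3 and 6, and for c 0 and 3. By edgeR 15 genes were lower for the trend and 2 for a, with 0 called for b and c. Groups naming a had a median difference of 0.20 over the 50 genes, where all genes had 0.10.

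Calls were made between the 2 sets. With the elements as additive terms, 15 of 50 genes were higher and 4 lower in the second set by limma, 19 in all, against 24.6% of all genes in either direction, 17.6% higher and 6.99% lower. At an unadjusted p under 0.05 limma listed 28 of 50, against 37.9% of all genes. The whole table moved with the sets: the median of all genes was 0.15 higher in the second set on the log2 scale, and that of the 50 genes 0.28. The set and the groups cannot be told apart for F121-9, abc.del and bc.del, which are in the first set alone, or for a.del, b.del and ac.del, which are in the second.

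Of 22 fork genes 7 rose and 4 fell, 31.8% and 18.2%, against 17.6% and 6.99% of all genes. Pcna (chr2:132249286-132253180) lay between 8.93 and 15.8 CPM in the first set, with a median of 12.9, and between 16.97 and 39.0 CPM in the second, with a median of 28.7. The sets did not overlap, and the log2 difference was 1.09 ± 0.20 (SE), with an adjusted p of 0.0023 by limma. Fen1 went from 5.75 to 10.8 CPM in the first set to 11.6 to 19.5 CPM in the second, a log2 difference of 0.99 ± 0.19. Lig1, the ligase that seals the fragments, had a median of 80.3 CPM in the first set and 126.3 CPM in the second, with an overlap, since abc.del replicate 2 reached 106.1 CPM and 100kdel 97.9 CPM. Its log2 difference was 0.66 ± 0.11. Pold1, the catalytic subunit of the lagging strand polymerase, rose by 0.85 ± 0.19 on the log2 scale, and Timeless by 0.75 ± 0.14. Rpa2 rose by 0.64 ± 0.15 and Rif1 by 0.38 ± 0.10.

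The 4 genes that fell were also at the fork. Tipin (chr9:64281585-64305422), the partner of Timeless, was between 143.0 and 189.1 CPM in the first set and between 85.3 and 110.2 CPM in the second. No library of one set reached the other, and the log2 difference was −0.76 ± 0.10 (SE), with an adjusted p of 0.00041 by limma. Rfc1, the large clamp loader subunit, was 164.0 to 188.8 CPM against 116.5 to 151.2 CPM, again with no overlap, a log2 difference of −0.42 ± 0.10. Prim2, the large primase subunit, fell by 0.44 ± 0.10 and Rpa1 by 0.39 ± 0.11. Partners within a complex went opposite ways: Rpa2 was 0.17 to 0.29 of the level of Rpa1 in the first set and 0.36 to 0.56 of it in the second, and Timeless was 0.13 to 0.22 of Tipin in the first and 0.30 to 0.53 in the second.

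**Figure D2:**
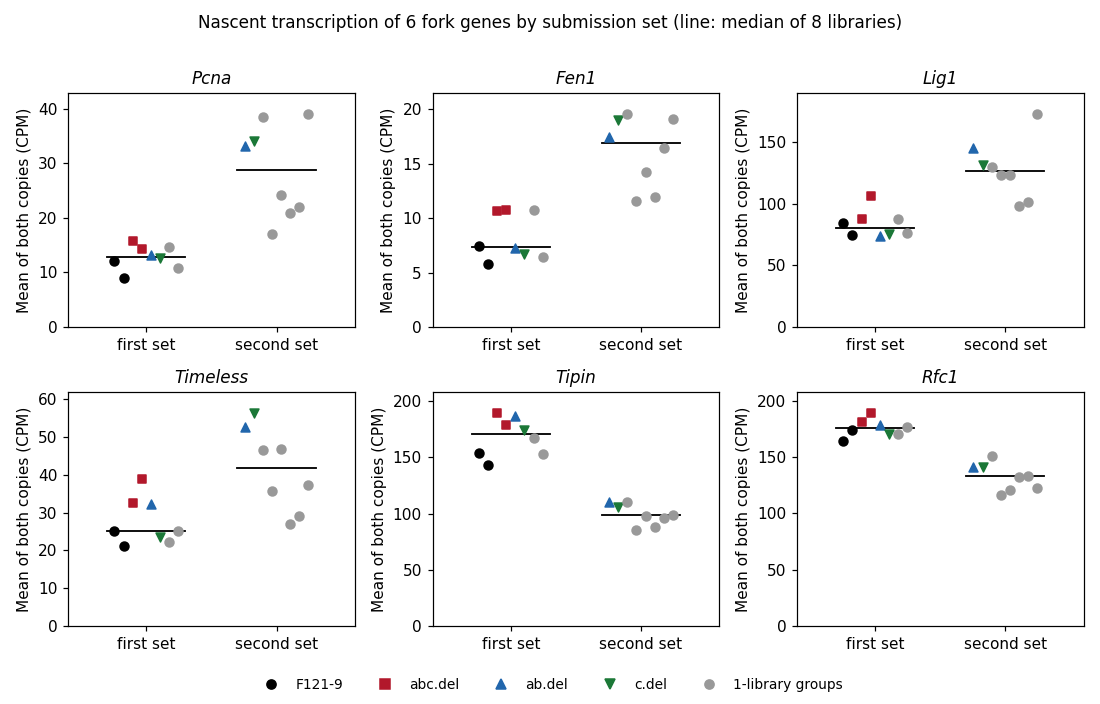
Level of 6 fork genes (mean CPM of both copies, linear axis from 0) in each of the 16 libraries, by set; lines are medians of 8 libraries, colours mark the groups with 2 libraries and grey those with 1. Pcna and Fen1 in the second set lie above every library of the first, Tipin and Rfc1 below, while Lig1 and Timeless overlap.

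Among licensing genes, 6 of 17 (35.3%) rose and none fell by limma, against 17.6% and 6.99% of all genes: Mcm7 by 0.90 ± 0.20 (SE) on the log2 scale, Mcm6 by 0.72 ± 0.18, Gmnn and Mcm2 by 0.44 ± 0.14 and 0.44 ± 0.13, Orc3 by 0.39 ± 0.12 and Orc5 by 0.32 ± 0.10. Mcm7 was 22.4 to 49.6 CPM in the first set and 39.3 to 85.7 CPM in the second, so the sets overlapped. For Mcm6 they did not, at 3.27 to 5.30 CPM against 5.95 to 8.62 CPM. Mcm3, Mcm4 and Orc1 had differences of 0.34, 0.41 and 0.25 that did not pass, with adjusted p of 0.075, 0.063 and 0.066 by limma. Of the 6, Mcm7 alone was called after median centring. Of 11 firing genes 2 rose (18.2%, near the share of all genes), Mcm10 by 0.46 ± 0.12 and Gins3, which had 0 to 11 reads per library in the first set and 7 to 32 in the second. Neither the kinase Cdc7 nor Dbf4 passed.

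The split into higher and lower depended on the scaling. Centring each library on its median left 7 genes higher (Mcm7, Gins3, Pold1, Pcna, Fen1, Lig1 and Timeless) and 7 lower (Orc4, Mcm9, Pole2, Prim2, Rfc1, Rpa1 and Tipin), with the median of the 50 genes at 0.00 and that of all genes at −0.13. The split of higher to lower was 13 to 4 after quantile normalization, 8 to 4 by edgeR and 8 to 5 by DESeq2. The split of all genes moved as well, from 2476 to 985 in the main fit to 1080 to 2440 after median centring. For all genes it was 1591 to 1596 after quantile normalization, 1542 to 1631 by edgeR and 1951 to 2130 by DESeq2. Under all 4 of these alternatives, 10 of the 19 calls held: Mcm7, Pold1, Pcna, Fen1, Lig1 and Timeless as higher, and Prim2, Rfc1, Rpa1 and Tipin as lower. Under all 22 alternatives 6 held: Mcm7, Pcna, Lig1, Timeless, Tipin and Rfc1.

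The groups ab.del and c.del have a library in each set, but these carry different codes and may be different clones, so set and clone cannot be told apart within a pair. These 4 libraries were also part of the fit. All 19 genes differed in the called direction in both the ab.del and the c.del pair, as did 96.0% of all genes called. Tipin was 186.7 and 110.2 CPM in the ab.del libraries and 174.4 and 105.8 CPM in those of c.del. The 4 edits outside the lettered series were not used in the fit: 100kdel, 245kdel and 4k.b.c of the second set lay on the called side of 680kinv of the first for 15 of the 19 genes, against 79.5% of all genes called. The exceptions were Orc5, Gmnn, Mcm2 and Prim2. Across all 8 against 8 libraries, 5 genes lay wholly above, Orc3, Mcm6, Gins3, Pcna and Fen1 (5.95% of all genes), and 2 wholly below, Tipin and Rfc1 (1.38%).

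**Figure D3:**
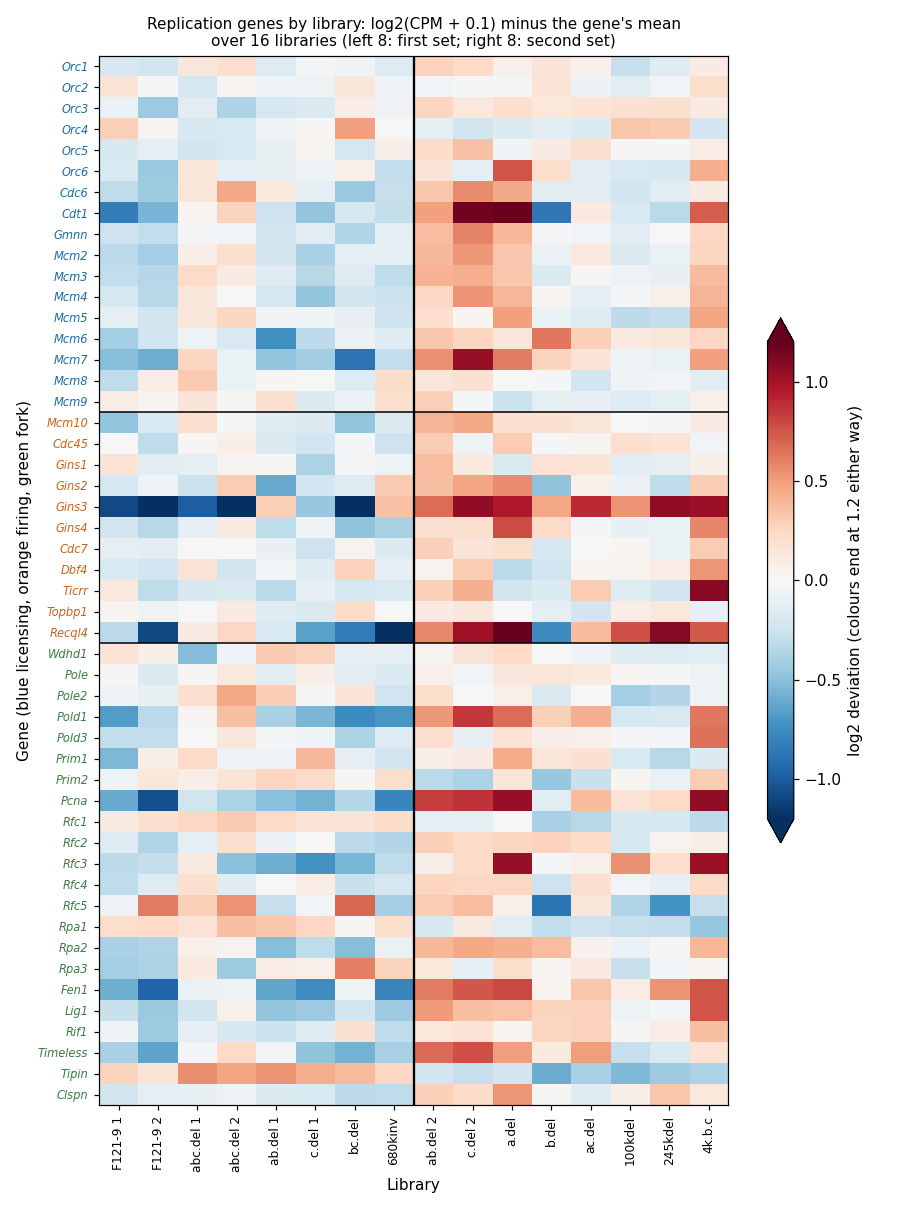
Log2(CPM + 0.1) of each replication gene minus its own mean over the 16 libraries, by library; genes are ordered by role (blue licensing, orange firing, green fork labels) and the vertical line parts the 8 libraries of the first set from the 8 of the second. The 2 F121-9 libraries have 12 and 10 genes of 50 above their own means, the second ab.del library 44 and a.del 40.

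Within the second set the libraries were not alike. The median deviation of the 50 genes from their own means was 0.28 in ab.del replicate 2, 0.24 in a.del and in 4k.b.c and 0.23 in c.del replicate 2. It was 0.06 in ac.del, −0.01 in b.del, −0.06 in 245kdel and −0.07 in 100kdel. In the first set it ran from −0.26 in F121-9 replicate 2 to 0.03 in both abc.del libraries. For all genes the same median was 0.10 in ab.del replicate 2, 0.11 in a.del and in 4k.b.c and 0.22 in c.del replicate 2. For all genes it was 0.04 in ac.del, −0.05 in b.del, 0.16 in 245kdel and 0.15 in 100kdel. The 50 genes were thus near all genes in c.del replicate 2 and below them in 245kdel and 100kdel. Cdt1 had 34.1 CPM in a.del and 33.5 CPM in c.del replicate 2 but 8.22 CPM in b.del, the lowest of all 16. It lies on chromosome 8, which was shifted towards cast in a.del. There its cast copy was at 3.15 times and its 129 copy at 1.52 times the mean of the libraries other than a.del and 4k.b.c. Mitotic genes, a list of 20 taken for contrast, had medians of 0.36 in 100kdel and 0.29 in 245kdel, where the replication genes were below their means, and −0.17 in a.del, where they were above. Elsewhere in the second set both lists were above: the mitotic median was 0.21 in 4k.b.c, 0.24 in c.del replicate 2 and 0.12 in ab.del replicate 2. It was 0.02 in ac.del and −0.27 in b.del.

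Of the helicase, the origin recognition complex and the clamp loader, the helicase had the highest median correlation. Over the 16 libraries, which share clones, sets and depth, Pearson's r between log2 values of Mcm2 to Mcm7 had a median of 0.68 over 15 pairs, and it was 0.71 and 0.73 within the first and the second set. Single helicase pairs ran from 0.18 to 0.94 over the 16 libraries. For Orc1 to Orc6 the median was 0.11, with −0.06 and −0.05 within the sets. For Rfc1 to Rfc5 it was 0.02, with 0.17 and 0.34 within the sets. Pcna, Fen1, Lig1 and Pold1 had a higher median than the helicase over 16 libraries, 0.89, with 0.62 and 0.73 within the sets. Over all 1225 pairs of the 50 genes the median over 16 libraries was 0.32, and over genes with a mean of at least 20 CPM 0.00. Pcna and Fen1 had r = 0.96 over all libraries, 0.89 within the first set and 0.92 within the second. For Timeless and Tipin r was −0.44 over all 16 libraries but 0.72 and 0.77 within the sets. Pcna and Tipin likewise had −0.66 over all libraries and 0.85 and 0.87 within the sets. The sign was thus positive within each set and negative over both. Cdt1 and its inhibitor Gmnn had r = 0.84 over 16 libraries, 0.58 in the first set and 0.86 in the second.

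Counts were also taken by promoter. Of the 16 genes with an E2F motif in the window, 5 rose and 0 fell in the second set, and of the 23 without it 8 rose and 2 fell. Of all tested genes with the motif 18.9% rose and 8.81% fell, and of those without it 17.5% and 6.84%. In abc.del, 11 of the 16 and 12 of the 23 lay above F121-9 without overlap, against 40.1% of all genes with the motif and 28.5% without.

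Beyond the 50 genes, 19 of 22 other replisome genes were tested between the sets, and 3 rose and 2 fell by limma, with a median of 0.06. These counts, and those of the 3 lists that follow, stand against 17.6% of all genes higher and 6.99% lower. Pola1, the catalytic subunit of the priming polymerase, fell by 0.67 ± 0.12 (SE) on the log2 scale. Of 10 genes of the fork checkpoint 3 rose and 2 fell, among them Wee1, the kinase that holds back mitotic entry, which fell by 0.59 ± 0.11. Of 20 genes of G1/S cyclins, E2F factors and nucleotide supply 4 rose and none fell, a share near that of all genes, and E2f1, named after its values were seen, was 6.12 to 9.52 CPM in the first set and 10.8 to 19.4 CPM in the second. Of the 20 mitotic genes 4 rose and 2 fell; the motor Kif11 fell by 0.59 ± 0.09 and Cenpe rose by 0.64 ± 0.13. In abc.del against F121-9 none of these 4 lists had a gene that passed by limma. All 20 G1/S and supply genes were higher there, with a median of 0.34, and 7 of the 20 mitotic genes, with a median of −0.11.

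Both copies of each gene could be compared within a library. Each copy was scaled to its own total, so a difference in total reads between the copies was removed. In F121-9 replicate 2, for example, all lines of the table held 16308823 reads from 129 and 14615089 from cast. The differences below are thus relative to each copy's total and not absolute output. By limma on 129 minus cast over the 16 libraries, 23 of 50 genes differed between copies, against 46.8% of 13583 autosomal genes; 13 were higher on 129 (24.7% of all) and 10 on cast (22.1%). At an unadjusted p under 0.05 there were 24 of 50, against 52.9%. Leaving out a.del and 4k.b.c, 25 genes passed, 16 higher on 129 and 9 on cast. The share of all autosomal genes in that fit is not given here, so this count has no background. Over those 14 libraries the median absolute difference was 0.15 on the log2 scale, against 0.28 for autosomal genes, and 27 of 50 were within 0.2 of equal. The autosomal genes were not matched for level here either.

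Among licensing genes Orc5 (chr5:22486480-22550338) had the widest gap among the 17 in the 14 libraries other than a.del and 4k.b.c. Its 129 copy averaged 194.3 CPM and its cast copy 109.5 CPM, and the difference ran from 0.65 through a median of 0.86 to 0.99 on the log2 scale, above 0 in 16 of 16 libraries. The fitted value was 0.83 ± 0.04 (SE). Cdc6 followed with 0.48 ± 0.06, above 0 in 15 of 16, and Mcm9 with 0.36 ± 0.04 in 16 of 16. Among firing genes the kinase Cdc7 was higher on cast in 16 of 16 libraries, at 31.2 CPM on 129 and 45.2 CPM on cast, a difference of −0.53 ± 0.04. Ticrr was also higher on cast in 16 of 16, by −0.67 ± 0.17 (SD) over the 14 libraries other than a.del and 4k.b.c. Its partner in firing, Topbp1, had −0.09 to 0.19 over the same 14.

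Fork genes held 13 of the 23. Rpa3, the smallest subunit of replication protein A, was 1.96 CPM on 129 and 6.28 CPM on cast. Its difference was −1.65 ± 0.15 (SE), below 0 in 16 of 16 libraries, on 75 to 297 reads per library, and its lowest and highest values, −2.50 and −0.31, were both from F121-9 libraries. Rpa2 was higher on 129 by 0.19 ± 0.05, and Rpa1 did not pass. Pcna was 24.1 CPM on 129 and 17.3 CPM on cast, a difference of 0.52 ± 0.06, above 0 in 16 of 16. Rfc3 was higher on 129 by 0.83 ± 0.16 and Rfc2 by 0.29 ± 0.06, and Rfc4 was higher on cast by 0.31 ± 0.05, so subunits of the clamp loader leaned to different copies. Prim2 was higher on 129 in every library, by 0.88 ± 0.13 (SD) over the 14. Pole was higher on 129 and Rif1 on cast in 16 of 16, by 0.29 ± 0.05 and 0.20 ± 0.03 (SE). In all, 5 genes were higher on 129 and 4 on cast in each of the 16 libraries, against 9.11% and 7.78% of autosomal genes.

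**Figure D4:**
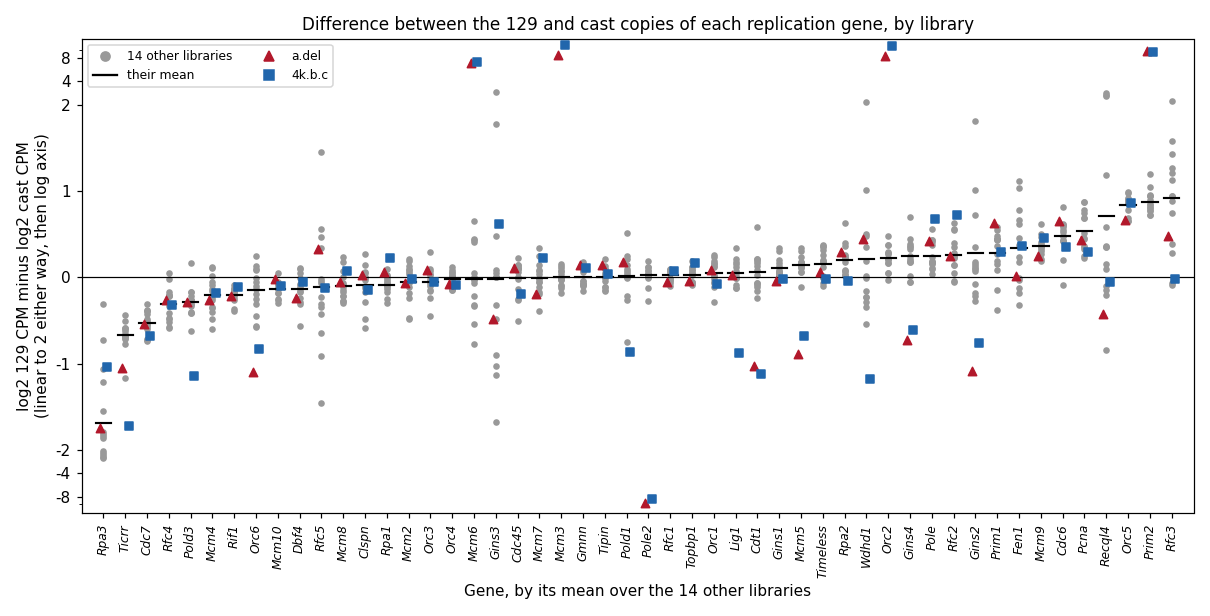
Log2 129 CPM minus log2 cast CPM of each replication gene in each library; grey points are 14 libraries, black bars their mean, red triangles a.del and blue squares 4k.b.c, and the axis is linear to 2 either way and logarithmic beyond. Rpa3, Ticrr and Cdc7 lie below 0 and Orc5, Prim2 and Pcna above it; Orc2, Mcm3, Mcm6, Prim2 and Pole2 leave the range in a.del and 4k.b.c.

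In a.del and 4k.b.c, 5 replication genes were read from 1 copy. On chromosome 1, Orc2 had 4425 reads from 129 and 9 from cast in a.del (0.203% cast, Wilson 95% interval 0.107% to 0.385%), and 2742 and 0 in 4k.b.c, where a count of 0 allows up to 0.109%. Mcm3, Mcm6 and Prim2, also on chromosome 1, had 11, 0 and 6 cast reads in a.del and 0, 0 and 5 in 4k.b.c, against 142 to 8030 reads from 129. Pole2 on chromosome 12 had the reverse, with 0 and 1 reads from 129 and 1534 and 775 from cast. Such intervals cover counting error only. The mean of both copies was 0.997 and 1.17 times the mean of the 14 other libraries for Orc2, 1.28 and 1.33 times for Mcm3, 1.101 and 1.18 times for Mcm6, 1.12 and 1.25 times for Prim2 and 1.03 and 0.94 times for Pole2. The remaining copy was thus read at 1.73 to 2.65 times its level elsewhere. The median of all genes on the chromosome against the other 14 libraries was 0.03 and 0.05 for chromosome 1 and 0.06 and −0.04 for chromosome 12, on the log2 scale.

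Chromosome 8 carries 6 of the 50 genes, the licensing genes Orc6, Cdt1 and Mcm5 and the GINS genes Gins2, Gins3 and Gins4. The median gene of the chromosome had a 129 minus cast difference of −0.999 in a.del and −0.94 in 4k.b.c, and a level 0.73 and 0.58 above the 14 other libraries on the log2 scale. Mcm5 was 97.8 CPM on 129 and 181 CPM on cast in a.del, and 105.7 and 169.8 CPM in 4k.b.c, where the 14 other libraries averaged 99.7 ± 12.5 (SD) and 90.1 ± 12.4 CPM. The 129 copy was thus at 0.98 and 1.06 times its mean elsewhere and the cast copy at 2.01 and 1.88 times. Gins4 was 44.9 and 39.0 CPM in these libraries, against 18.6 to 30.6 CPM in the other 14, and Orc6 20.5 and 16.5 CPM, against 8.90 to 14.04 CPM. Orc6, Mcm5 and Gins4 were above all 14 in both, 3 of 6, where 5.23% of all genes and 35.3% of chromosome 8 genes were. Of all 50 genes 6 were, the others being Pcna on chromosome 2, Rfc3 on chromosome 5 and Fen1 on chromosome 19. Chromosome 7 in 4k.b.c gave the like picture: Ticrr was 137.1 CPM, Pold3 146.4 CPM and Lig1 172.4 CPM, each the highest of 16 libraries, 3 of 4 genes there, against 11.1% of all genes and 43.5% of chromosome 7 genes. Of all 50 genes 9 were highest in 4k.b.c, with Orc2, Cdc7, Dbf4, Prim2, Pcna and Rif1 on other chromosomes. The cast copies of Ticrr, Pold1, Pold3 and Lig1 were at 2.76, 2.04, 2.06 and 2.28 times their level in the other 14, and the 129 copies at 1.33, 1.09, 1.14 and 1.21 times. Without a.del, the set comparison called 20 of 50 genes, and the share of all genes in that fit is not given here.

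**Figure D5:**
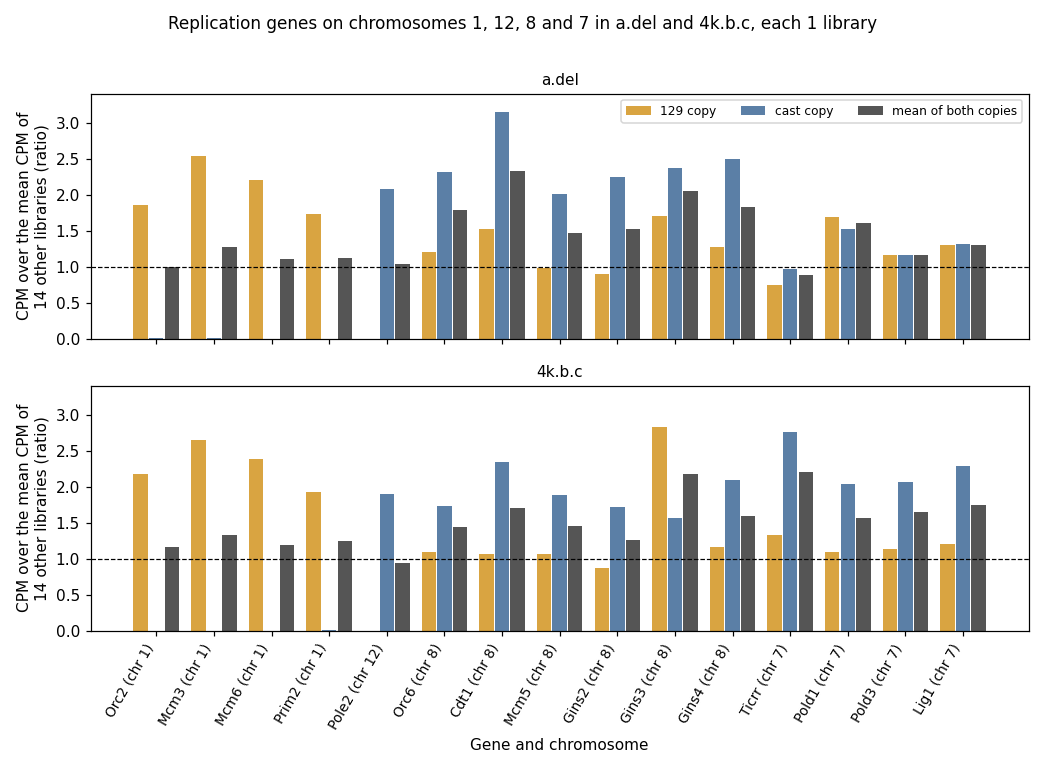
CPM of replication genes on chromosomes 1, 12, 8 and 7 in a.del (top) and 4k.b.c (bottom), each divided by the mean of the 14 other libraries, for the 129 copy, the cast copy and the mean of both; the axis starts at 0 and the dashed line is 1. The mean of both copies stays between 0.94 and 1.33 for the chromosome 1 and 12 genes, while the cast bars of chromosome 8 genes, and of chromosome 7 genes in 4k.b.c, reach 1.56 to 3.15.

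The 4 edits outside the lettered series have 1 library each and so no test. In 680kinv, 3 genes lay below all 12 lettered libraries, Mcm5, Recql4 and Pole2, and none above, where 6.61% and 7.03% of all genes did so. In 100kdel Orc1, Mcm5 and Pole2 lay below (5.21% of all genes) and none above (14.6%), and in 245kdel Mcm5 and Pole2 lay below (5.41%) and none above (15.9%). Mcm5 was 83.4, 79.6 and 81.0 CPM in these 3 libraries, against 84.8 CPM in the lowest lettered library, F121-9 replicate 2. Pole2 was 33.3, 29.6 and 30.7 CPM, against 34.7 CPM in b.del, the lowest lettered library. In 4k.b.c 9 genes lay above (13.3%) and 1, Rpa1, below (7.27%). Of the 9, Ticrr, Pold3 and Lig1 are on chromosome 7 and Orc2 and Prim2 on chromosome 1. Cdc7, Dbf4, Pcna and Rif1 lie elsewhere. These counts depended on the scaling. After median centring 14 genes lay below in 100kdel and 15 in 245kdel, with 0 and 1 above. In 680kinv 3 then lay below and 0 above, and in 4k.b.c 2 below and 8 above. The shares of all genes given here are without such centring. Reads of 4 genes could include those of another gene on the same strand, Orc5, Mcm7, Pold1 and Clspn, the last 3 of which hold a microRNA gene. Mcm9 and Lig1 overlap a gene on the opposite strand by more than 1000 bases, and the labels describe the libraries as keeping strand.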

How the data were processed

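Bru-seq reads of 16 libraries were aligned to mm10 with Bowtie2 and handled with bedtools, per the submitters' processing notes, and the file header states that clipped reads with a mapping quality of 10 or more were split between the copies by homozygous SNPs. The deposited table gives 1 value per gene and copy in CPM: the authors' file is called RPKM, but each of its 32 columns sums to 1000000 with no division by gene length, and whole reads were recovered within 0.01 for all values. A gene's level was the mean CPM of both copies. With limma 3.58.1 (R 4.3.3), log2(CPM + 0.1) was fitted with a mean-variance trend over 14094 genes with a mean of at least 0.2 CPM, or 13583 autosomal genes for 129 minus cast, and p-values were adjusted by Benjamini-Hochberg over all of them at 0.05. edgeR 4.0.16 and DESeq2 1.42.0 were run on the recovered reads as alternatives. The limma fits other than 129 minus cast were run on simulated counts with a fixed dispersion and no set or clone effects. The sign and mean error of planted differences were required to hold there, and edgeR and DESeq2 were not simulated. The design had foreseen RPKM, so reads were not divided by length except for levels per kb.

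The members and gene lists were chosen with earlier results of these data known. Genes named are those called in any comparison, those with the 3 largest differences each way, the highest, lowest, most and least variable, and 15 fixed genes; from other lists, those with the smallest p. A floor of 3 reads equals 0.0833 to 0.329 CPM. Of the table's 42497 lines, 6 gene segments were left out.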

Additional observations from a re-analysis of the deposited data

Results flagged for a closer look

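The 129 minus cast difference of Fen1 had a mean of 0.64 in F121-9, 0.35 in abc.del and 0.74 in ab.del on the log2 scale, with both libraries of each above 0, and −0.18 in c.del, with both below 0. For Orc6 the mean was 0.11 in F121-9 and 0.16 in ab.del, with both libraries above 0, and −0.32 in abc.del and −0.41 in c.del, with both below 0. Orc6 lies on chromosome 8, whose median was −0.28 in c.del replicate 1 and −0.02 in c.del replicate 2; minus that median Orc6 was −0.29 and −0.23 there. These differences between groups of 2 libraries were not tested.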

How the results depend on the processing

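No paired analysis was possible because only F121-9 carries replicate numbers in the labels, so no number matches libraries across groups; the 129 and cast copies were compared within each library. For the 3 deletions, the trend and the 3 element terms, 0 of 50 genes were called under every alternative run. The 19 calls between sets became 12 without a variance trend, 12 on the 129 copy only and 12 by edgeR, and lay between 13 and 19 when a library of a group with 2 was left out, with 13 without c.del replicate 2. For named genes, 73 values lost their call and 344 kept it. The 23 calls between copies became 0 in the 2 F121-9 libraries alone, where fewer samples were fitted (6 at an unadjusted p under 0.05 by limma), and lay between 21 and 23 with a library left out. There the difference of Orc6 was 0.11 and that of Mcm4 0.011, both of opposite sign to the 16 libraries. Single-library edits outside the lettered range numbered 18, and 43 after median centring. The median of the 50 genes for element b, −0.04, was 0.11 after median centring, and was also above 0 by edgeR, by DESeq2, with the set as a covariate, and without a.del, ab.del replicate 1 or c.del replicate 2. Gins3 and Recql4 are limited by few reads, and F121-9 by having libraries in 1 set.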
